A study of Sus scrofa with 35 samples.

Results

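The sarcomeric myosin heavy chains MYH1, MYH2, MYH3, MYH4, MYH7 and MYH8 were examined in longissimus dorsi muscle, which runs along the back, from growing pigs that were castrated males. Members were the non-control probes whose gene name on the array was 1 of these 6 symbols. This gave 33 probes of 5 genes, out of 60305 probes under 45222 names on the array: 8 probes for MYH1, 5 for MYH2, 1 for MYH3, 10 for MYH4 and 9 for MYH7. No probe carried the name MYH8, so the neonatal isoform was not analysed here. All 33 probes were well above background on 35 of 35 arrays, no spot was saturated on any array, and all 33 passed the filter on dim probes.

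The study compared Creole pigs, Large White pigs and their F1 cross at thermoneutrality (TN, labelled 24 °C) or under heat stress (HS, labelled 30 °C), with 6 arrays each of Creole TN, Creole HS, F1 TN, Large White TN and Large White HS and 5 of F1 HS. The growth protocol and the study's methods give the challenge as 32 °C for up to 5 days, and this disagreement with the labels could not be settled. Per the methods, the pigs came from blocks of littermates, TN pigs were killed before the temperature rose and HS pigs after it, TN and HS pigs were in separate pens, and feed intake was lower in the heat. Slaughter day, age, pen, feed intake and temperature therefore cannot be told apart in the HS minus TN comparison. The labels tie no array to a litter, so all P values treat the pigs as independent.

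Myosin heavy chain is the motor protein of the thick filament, and the isoform a fibre makes goes with its speed of contraction. MYH7 is the slow isoform of type I fibres, MYH2 the fast oxidative IIa isoform, MYH1 the fast IIx isoform and MYH4 the fast glycolytic IIb isoform, which is abundant in the back muscle of pigs. MYH3 is the embryonic isoform. It is made in developing muscle, is replaced by the adult isoforms, and is made again by fibres that regenerate after injury.

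The probes were compared with each other by sequence, but not with transcripts, so what each can bind was not tested. All are 60 bases long and are printed as the array files give them, 5′ to 3′. The MYH3 result rests on a single probe, O9265, whose last 30 bases are shown because they hold AATAAA, the letters of the usual polyadenylation signal (capitals), from base 49 of the probe. The array files give no place in a transcript for it. AATAAA is also in 1 MYH7 probe, and on the printed strand it is in 10.3% of all probes on the array (14.1% on either strand).
MYH3, O9265: tgactgcttttcacatgcAATAAAccttgt

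The fast isoforms are encoded by close relatives, and MYH4, MYH1 and MYH2 stand side by side in this order among the RefSeq genes of Sscrofa11.1. Probes of different isoforms were compared in 409 pairs. Apart from a pair described next, the longest run of identical bases was 19, between a MYH2 and a MYH1 probe, and the longest between MYH1 and MYH4 was 16. The MYH3 probe shared at most 7 bases in a row with any other isoform. Both pairs are shown with the shared run in capitals, as the longest runs that probes of these isoforms share. The number after each name is where the array file places the probe in its transcript.
MYH2, 4665: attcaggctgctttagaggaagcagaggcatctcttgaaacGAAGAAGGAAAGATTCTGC
MYH1, 4702: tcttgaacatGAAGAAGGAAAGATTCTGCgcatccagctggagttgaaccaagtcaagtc
MYH1, 5659: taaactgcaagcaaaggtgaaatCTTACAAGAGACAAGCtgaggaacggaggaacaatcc
MYH4, 5674: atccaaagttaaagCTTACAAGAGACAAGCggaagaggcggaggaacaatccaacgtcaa

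One of the 10 probes named MYH4, A_72_P303294, carried the accession of MYH2 and shared a run of 57 bases with the MYH2 probe at base 5861, shifted by 3. The first 30 bases of that run are shown because they occur in both probes.
MYH2 and the probe named MYH4: tcctgatgttatagaatgactgaagagagg
Over the 35 arrays, after the mean of each group was subtracted, its level followed that MYH2 probe with Pearson r = 0.995. It is counted under MYH4 by its name only. One further pair of MYH4 probes, O14581 and the probe at base 3936, had the same sequence and thus measured the same target on separate spots. It is shown because the largest fall in the family was read with it.
MYH4, 3936: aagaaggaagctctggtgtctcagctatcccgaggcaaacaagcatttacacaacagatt

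MYH3 was higher in HS than in TN muscle. All levels are log2 normalised intensity, so a difference of 1 is a doubling, and HS minus TN is the log2 difference from a limma model with breed and temperature, adjusted over 41517 probes. In Creole pigs, the lowest, median and highest MYH3 levels were 9.45, 13.78 and 14.85 in TN and 11.70, 15.59 and 16.63 in HS. In Large White pigs they were 10.82, 13.52 and 14.37 in TN and 12.87, 15.27 and 15.76 in HS. In F1 pigs they were 10.73, 14.41 and 15.18 in TN, and the 5 HS arrays gave 15.27, 15.30, 15.33, 15.73 and 16.02. The F1 groups did not overlap, whereas in Creole and in Large White pigs 4 of 6 HS arrays lay above every TN array of the same breed. How often other probes separated in this way was not counted.

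**Figure D1:**
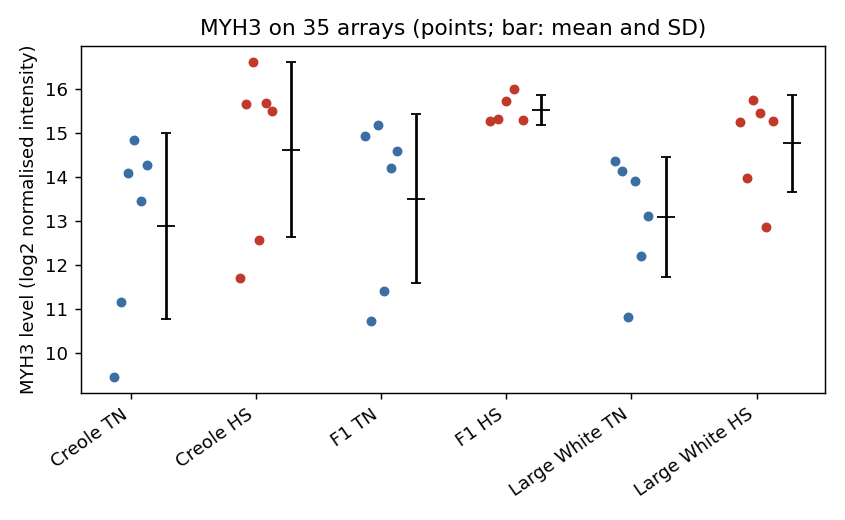
MYH3 level (log2 normalised intensity) on each of 35 arrays by breed and temperature, with the group mean and SD beside the points. Most HS arrays (13 of 17) lie above 15 against 1 of 18 TN arrays, and the arrays below 13 (6 TN and 3 HS) come from every group but F1 HS.

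The 18 TN arrays had a mean MYH3 level of 13.16 ± 1.74 (SD) and the 17 HS arrays one of 14.94 ± 1.35 (SD). The limma difference was 1.80 (SE 0.51, 95% interval 0.78 to 2.83, limma adjusted P = 0.0141), which is 3.49-fold, and 14 of 17 HS arrays lay above the TN mean of their breed. Of all probes tested, 16.0% passed the same threshold, 7.73% as higher in HS. The difference was 1.75 in Creole, 2.02 in F1 and 1.67 in Large White pigs, and none of these passed on its own (limma adjusted P = 0.249, 0.562 and 0.342). Leaving out single arrays gave 1.06 (without Creole TN 1) to 2.33 (without Creole HS 1) in Creole, 1.46 to 2.35 in F1 and 1.22 to 2.05 in Large White pigs. The limma test of whether it differed between breeds gave an adjusted P of 0.996. Within the slides that carried the arrays it was 1.91, 1.83, 2.53, 0.46 and 2.84, positive on all 5, the last of them with a single HS array.

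The array-to-array spread of MYH3 was far larger than that of most transcripts. Its level ranged from 9.45 in Creole TN 1 to 16.63 in Creole HS 3, a 145-fold range, and its SD within groups was 1.63 against a median of 0.226 over all kept probes, at percentile 99.9. Low arrays occurred at both temperatures: 6 of 18 TN and 3 of 17 HS arrays lay below 13. F1 HS was the group with the smallest SD, 0.332.

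The call for MYH3 depended on 1 covariate. An index of transcript ends, the mean difference between the most 3′ and the most 5′ probe of 432 transcripts outside the family, was 2.14 ± 0.0638 in TN and 2.21 ± 0.0494 in HS, higher in 15 of 17 HS arrays (permutation test within breed, two-sided P = 0.00098, adjusted P = 0.0049 over 5 array measures). With this index in the model, chosen after seeing the data, MYH3 was still higher by 1.62 (SE 0.60), with a limma adjusted P of 0.152 (0.011 unadjusted). Then 2.27% of all probes passed. A general measure of brightness, the 75th percentile of log2 intensity, was also higher in HS (9.24 against 9.05, permutation P = 0.0139, adjusted P = 0.0232), and with it in the model MYH3 gave 2.04 (adjusted P = 0.0279).

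The genes whose levels followed MYH3 most closely over the 35 arrays were DCLK1 (r = 0.948), TNNT2 (r = 0.942), CHRNA1 (r = 0.901), CASQ2 (r = 0.894) and NEFM (r = 0.857), out of 9265 genes compared by their brightest probe. DCLK1 encodes a doublecortin-like kinase. TNNT2 encodes cardiac troponin T, which developing skeletal muscle also makes, and CHRNA1 the alpha subunit of the muscle acetylcholine receptor. CASQ2 encodes the calsequestrin of heart and slow fibres, and NEFM a neurofilament subunit. These r values describe arrays that share breed, temperature and slide. After the group means were subtracted they were 0.941, 0.954, 0.874, 0.880 and 0.811, and without the 2 arrays highest in MYH3 they were 0.943, 0.939, 0.898, 0.885 and 0.841.

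Like MYH3, these genes varied widely. DCLK1 ranged over 4.58 log2 units, TNNT2 over 5.86, CHRNA1 over 3.05, CASQ2 over 3.24 and NEFM over 3.59. Creole TN 1, the lowest array in MYH3, was also the lowest in DCLK1, CHRNA1, CASQ2 and NEFM. Creole HS 3, the highest, was also the highest in DCLK1, TNNT2, CHRNA1 and CASQ2. Since they were chosen for following MYH3 on these arrays, their HS minus TN differences are no independent evidence. These were 1.20 for DCLK1, 1.38 for TNNT2, 0.88 for CHRNA1, 0.86 for CASQ2 and 1.35 for NEFM.

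**Figure D2:**
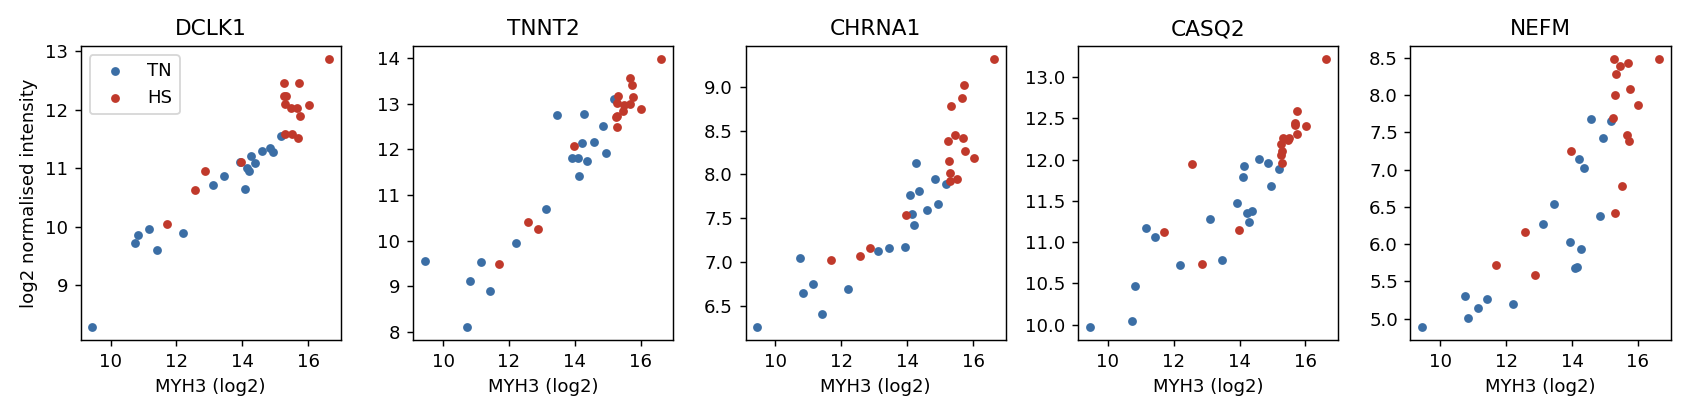
Levels (log2 normalised intensity) of the 5 genes closest to MYH3 against the MYH3 level, 1 point per array, TN in blue and HS in red. In each panel the points run from low to high along both axes, and TN and HS arrays lie along the same band, with r between 0.857 and 0.948 over 35 arrays.

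Genes of developing and regenerating fibres were counted from a list of 24 named genes that did not contain MYH3. The list was drawn up with earlier results of these data known. It holds TNNT2 and CHRNA1, which were also among the genes closest to MYH3, so its counts are no independent evidence. Of the 17 listed genes that were measured, 9 were called higher in HS and none lower, where 7.73% of all probes were called higher. The median change of the 17 was 0.315 against -0.022 over all probes. The 3 with the smallest adjusted P were NES, which encodes the intermediate filament protein nestin, with 0.90 (SE 0.12, adjusted P = 6.38e-05), NCAM1, a neural cell adhesion molecule found on immature and denervated fibres, with 0.52 (SE 0.09, adjusted P = 0.00046), and CHRNG, the fetal gamma subunit of the acetylcholine receptor, with 0.75 (SE 0.17, adjusted P = 0.00279). The others called higher were CHRNA1, DES, MYOG, TNNT2, VIM and PTN. The called genes followed MYH3 to different degrees over the arrays, with r of 0.095 for VIM, 0.239 for PTN, 0.302 for DES and 0.569 for NCAM1, against 0.769 for NES, 0.774 for MYOG and 0.852 for CHRNG. MYOD1, a regulator of myoblasts, was 8.85 ± 0.392 in TN and 8.67 ± 0.373 in HS (adjusted P = 0.343).

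Some markers of other cells moved with temperature as well. Of all probes, 16.0% were called, 7.73% as higher and 8.30% as lower in HS. Sets with 1 call are too small to compare with these shares. Of 8 macrophage markers, 4 were called higher in HS and none lower, with a median change of 0.814, and the mean level of the 8 ranged from 7.51 to 10.99 over TN arrays and from 9.32 to 11.37 over HS arrays. The 3 with the smallest adjusted P were ACP5, LYZ and CSF1R, by 1.64, 2.26 and 0.93. Of 6 other leukocyte markers measured, none was called. Of 7 fibroblast markers 2 were called higher, and of 7 nerve and Schwann cell markers 2 were, the neurofilaments NEFH by 1.91 and NEFM by 1.35. Of 4 satellite cell markers measured, 1 was called, PAX7, as lower. With the mean of the 14 macrophage and leukocyte markers in the model, MYH3 was higher in HS by 1.97 (limma adjusted P = 0.033). In whole muscle, fewer cells of a type and less RNA per cell cannot be told apart. The skeletal muscle fibre markers themselves were bright on every array, with a mean of 17.55 or more. Of 6 measured, 5 had a negative difference and 1 was called, RYR1, the calcium release channel, with -0.21 (adjusted P = 0.0499), and their mean level was 18.02 ± 0.13 in TN and 17.87 ± 0.13 in HS.

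The adult isoforms moved little and mostly downwards. Of the 33 member probes, 30 had a negative HS minus TN difference, with a median of -0.178, and 11 passed the threshold, 10 as lower and MYH3 as higher. The 10 are 30.3% of the members, against 8.30% of all probes called lower. The probes of 1 gene read the same transcript, and among all probes with a mean level of 16 to 18, where many members lie, 16.8% were called lower. Some called probes read nearly the same bases, in MYH4 those at 4982, 4984 and 4986 and in MYH1 those at 5226 and 5231. A called pair of MYH4 probes had the same sequence, so the count of probes exceeds the count of separate targets. Lower calls came from 6 of 10 MYH4 probes, 3 of 8 MYH1 probes and 1 of 5 MYH2 probes, and from 0 of 9 MYH7 probes.

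MYH4, the IIb isoform, gave a different answer at different places in its transcript. The probe at base 3936 had lowest, median and highest levels of 16.95, 17.23 and 17.31 in Creole TN and 15.98, 16.35 and 17.21 in Creole HS. They were 16.79, 17.10 and 17.23 in F1 TN and 16.13, 16.44 and 16.96 in F1 HS, and 16.68, 16.94 and 17.32 in Large White TN and 15.91, 16.60 and 17.23 in Large White HS. Groups overlapped in every breed, and 15 of 17 HS arrays lay below the TN mean of their breed. HS minus TN was -0.56 (SE 0.11, limma adjusted P = 0.000824), or 0.678-fold, and -0.52 (SE 0.10, adjusted P = 0.00101) on the other spot with the same sequence. The 4 probes between bases 4797 and 4986 gave -0.36, -0.40, -0.37 and -0.36, and all passed. Those at bases 4982, 4984 and 4986 overlap almost fully, so they read nearly the same stretch of the transcript.

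The MYH4 probes nearest the 3′ end did not show this fall. At bases 5641, 5674 and 5832 the HS minus TN differences were -0.01, -0.01 and -0.02 (SE 0.03, 0.05 and 0.03), and none passed. At base 5641, the brightest MYH4 probe, the lowest, median and highest levels were 18.88, 18.99 and 19.07 in Creole TN and 18.92, 18.99 and 19.07 in Creole HS. They were 18.97, 19.03 and 19.06 in F1 TN, 18.93, 19.01 and 19.06 in F1 HS, 19.01, 19.03 and 19.06 in Large White TN, and 18.89, 18.97 and 19.14 in Large White HS. The mean of these 3 probes minus the probe at base 3936 was 1.89 ± 0.20 (SD) over the 18 TN arrays and 2.43 ± 0.38 (SD) over the 17 HS arrays.

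**Figure D3:**
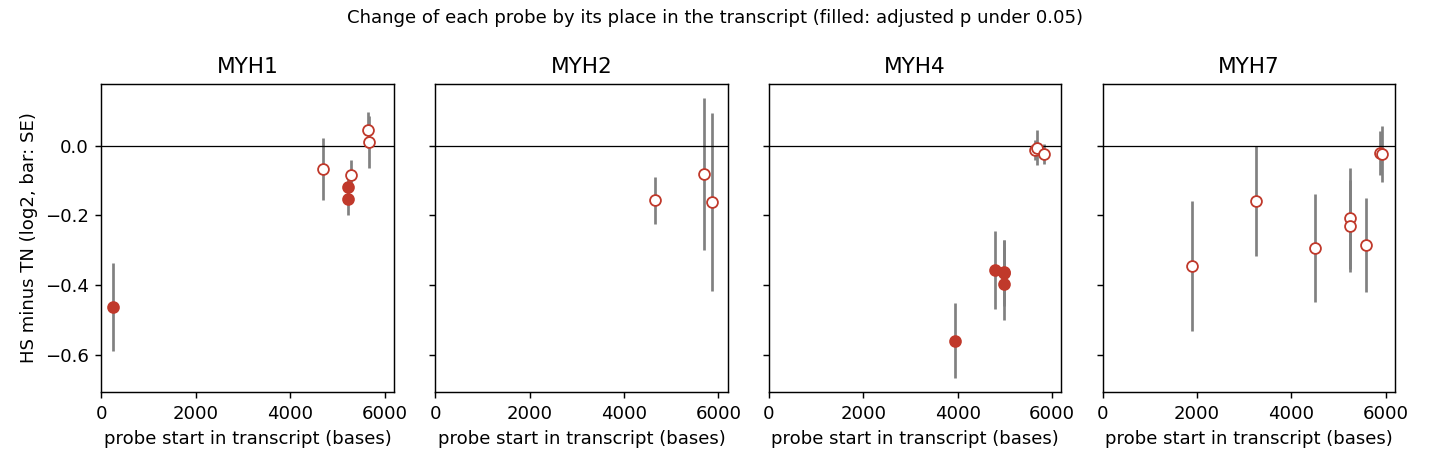
HS minus TN difference (log2, with its SE) of each probe whose place in the transcript the array files give, against that place in bases, in 1 panel each for MYH1, MYH2, MYH4 and MYH7. Filled points passed the threshold. In MYH4 the difference goes from -0.56 at base 3936 to -0.02 at base 5832, and in MYH1 from -0.46 at base 247 to 0.01 at base 5659.

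Position and brightness went together and cannot be told apart. The 3 probes at the 3′ end of MYH4 were also its brightest, with means of 18.93 to 19.01, and the probe at base 5641 ranked between 23 and 59 among 60305 probes on every array. Quantile normalisation sets each array's brightest probes to nearly the same values. Among all probes with a mean of 18 to 20, 10.7% were called and the median absolute difference was 0.037, against 40.7% and 0.149 for means of 16 to 18. When arrays were scaled to their 75th percentile instead, the probe at base 5641 was lower in HS by 0.226 (limma adjusted P = 0.0165), and the probe at base 3936 by 0.67 (adjusted P = 0.00112), with a median over all probes of -0.077. Before scaling, the 75th percentile was itself higher in HS by 0.183, and this scaling takes it off every probe. With the index of transcript ends in the model the difference at base 3936 was -0.37 (SE 0.11, limma adjusted P = 0.0703), and 0 of 33 members passed by limma. Unadjusted P values there were 0.00237 for this probe and 0.0552 for the brightest MYH2 probe.

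MYH1, the IIx isoform, had its largest fall at its most 5′ probe and none at its most 3′ probes, but no steady course between them. Its probe at base 247 had lowest, median and highest levels of 13.93, 14.35 and 14.49 in Creole TN and 13.27, 13.82 and 14.29 in Creole HS, and of 14.11, 14.38 and 14.48 in F1 TN and 13.83, 14.19 and 14.23 in F1 HS. In Large White pigs they were 13.77, 14.11 and 15.59 in TN and 12.98, 13.65 and 14.33 in HS. Groups overlapped in every breed. HS minus TN was -0.46 (SE 0.13, adjusted P = 0.0115), and 16 of 17 HS arrays lay below the TN mean of their breed. The next probe, at base 4702, gave -0.07 (SE 0.09, adjusted P = 0.663), although it was dimmer (mean 16.35) and lay further 5′ than the called probes that follow. The probes at bases 5226 and 5231 gave -0.12 and -0.15 (adjusted P = 0.0421 and 0.0201), whereas those at bases 5646 and 5659 gave 0.04 and 0.01 (adjusted P = 0.596 and 0.944). The brightest MYH1 probe, at base 5292, gave -0.08 (SE 0.04, adjusted P = 0.182).

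All 5 MYH2 probes had a negative HS minus TN difference, from -0.35 to -0.08, and 1 of 5 was called. O14587, the brightest, had means of 18.03 ± 0.123 (SD) over TN arrays and 17.82 ± 0.199 (SD) over HS arrays, a difference of -0.21 (SE 0.06, limma adjusted P = 0.0144), and 14 of 17 HS arrays lay below the TN mean of their breed. In Creole pigs its lowest, median and highest levels were 18.04, 18.11 and 18.18 in TN and 17.58, 17.72 and 18.15 in HS. There 5 of 6 HS arrays lay below every TN array of the breed, against 3 of 5 in F1 and 1 of 6 in Large White pigs. The share of all probes that separated as far was not counted. The probe at base 4665 gave -0.16 (SE 0.07, adjusted P = 0.104) and the dimmest probe -0.35 (SE 0.27, adjusted P = 0.403). The probes at bases 5689 and 5861 gave -0.08 (SE 0.22) and -0.16 (SE 0.26), with adjusted P of 0.842 and 0.713. The sequence of O14587 is shown because the only MYH2 call rests on it.
MYH2, O14587: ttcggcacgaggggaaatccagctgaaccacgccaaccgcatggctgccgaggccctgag
After the group means were subtracted, O14587 followed the MYH1 probe at base 5226 with r = 0.897 over the 35 arrays. Its r with the MYH4 probe at base 4984 was 0.888. Its r with the MYH2 probes at bases 4665, 5689 and 5861 was lower, at 0.628, 0.557 and 0.488. On the same values, the probes at bases 5689 and 5861 followed each other with r = 0.975. Which transcripts O14587 binds was not tested. Its call was also lost with the array brightness (-0.15, adjusted P = 0.151), the leukocyte marker mean (-0.13, adjusted P = 0.19) or the index of transcript ends (-0.13, adjusted P = 0.314) in the model.

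MYH7, the slow isoform, had no probe called. Its brightest probe, at base 5878, averaged 18.69 ± 0.206 (SD) over TN arrays and 18.67 ± 0.174 (SD) over HS arrays, a difference of -0.02 with a 95% interval of -0.15 to 0.11 (limma adjusted P = 0.862). All 9 differences were negative, from -0.35 at base 1888 (SE 0.19) to -0.02 at base 5878, and the smallest adjusted P was 0.149. After the group means were subtracted, the 9 probes rose and fell together over arrays, with r between 0.77 and 1.00. This was a closer agreement than among the MYH1 probes, where r lay between -0.27 and 0.92. On the same values, single MYH7 probes followed MYH3 with r between 0.38 and 0.50.

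**Figure D4:**
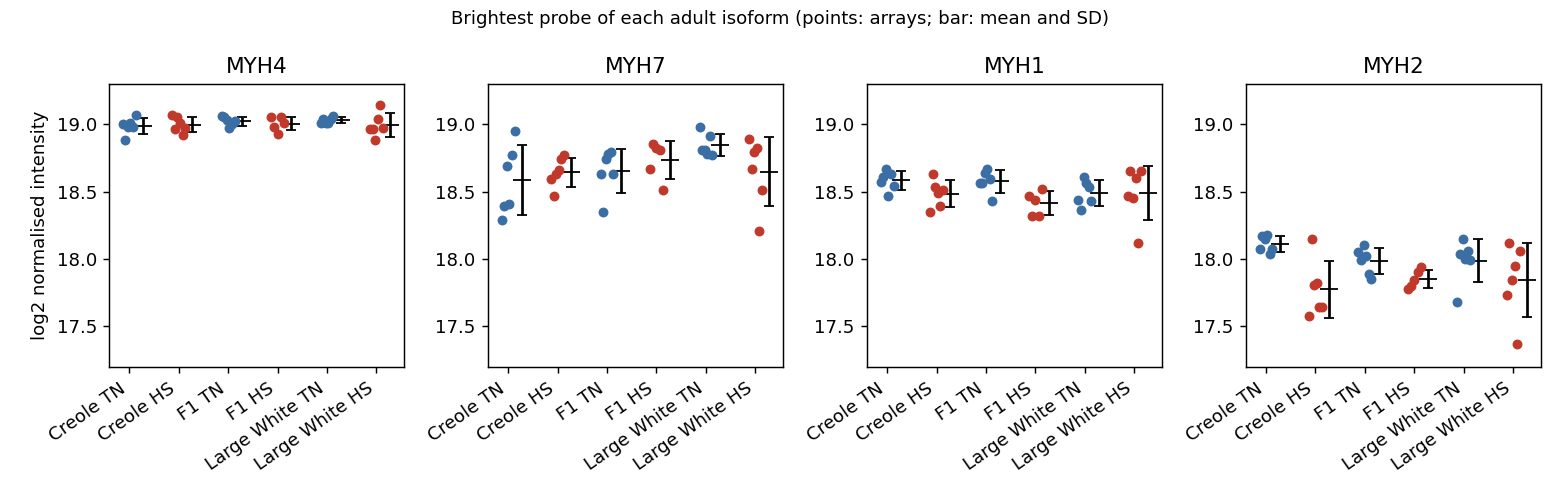
Level (log2 normalised intensity) of the brightest probe of MYH4, MYH7, MYH1 and MYH2 on each of 35 arrays by breed and temperature, with the group mean and SD beside the points. The groups overlap in all panels, and Large White HS 5 is the lowest array for MYH1, MYH2 and MYH7 and the highest for MYH4.

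Within single breeds the falls passed only in Creole pigs, where 5 of 33 members were called lower, all of them MYH4 probes, against 1.91% of all probes called and 0.874% called lower. These probes are not separate targets. Those at bases 4982, 4984 and 4986 overlap almost fully, and the others are the pair with the same sequence. The probe at base 3936 gave -0.77 in Creole (limma adjusted P = 0.0313), -0.48 in F1 (adjusted P = 0.464) and -0.42 in Large White pigs (adjusted P = 0.241). The Creole calls rested on single arrays: 0 members passed without Creole HS 1, 3, 5 or 6 or Creole TN 1 or 6, 2 without Creole TN 5, 3 without Creole TN 4 and 9 without Creole HS 2, while the difference at base 3936 stayed between -0.93 and -0.68. In F1 and in Large White pigs 0 of 33 members passed (8 and 8 at an unadjusted P under 0.05), with 0.00482% of all probes called in each (8.30% and 16.6% at an unadjusted P under 0.05). These differences between breeds were not past the test of the interaction, where by limma 0 of 33 members passed and 0 had an unadjusted P under 0.05, and 0% of all probes passed (3.84% unadjusted).

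The isoforms did not differ detectably between breeds. Creole minus Large White lay between -0.35 and 0.19 over the members, with 0 of 33 called by limma (1 at an unadjusted P under 0.05) against 3.64% of all probes. F1 minus Large White and F1 minus Creole also gave 0 of 33 (0 and 0 unadjusted), against 0.525% and 0.477% of all probes. For MYH7, all 9 probes were lower in Creole than in Large White pigs, by 0.13 to 0.35, with a smallest adjusted P of 0.293. The brightest was 18.61 in Creole and 18.75 in Large White pigs. Of 12 slow fibre genes measured, 10 also had a negative Creole minus Large White difference, with a median of -0.322 against 0.008 over all probes, and 1 was called, the tropomyosin TPM3, by -0.55 (adjusted P = 0.00324). Of 11 fast fibre genes, 4 were negative and 0 were called. For MYH3 the difference was -0.18 (SE 0.61, adjusted P = 0.936), an error too wide to compare breeds.

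Shares were computed on each array from the brightest probe of each isoform on the linear scale. Probes bind with different strength, so a share is no molar share and only the same isoform is compared between arrays. The MYH3 share averaged 0.91% ± 0.691 (SD) over the 18 TN arrays and 2.59% ± 1.47 (SD) over the 17 HS arrays, and it ranged from 0.0464% in Creole TN 1 to 6.12% in Creole HS 3. The MYH2 share was 16.5% ± 1.48 in TN and 14.7% ± 1.56 in HS, and the MYH1 share 23.7% ± 1.53 and 22.9% ± 1.49. For MYH2 the share rests on O14587, and which transcripts that probe binds was not tested. The MYH4 share was 32.6% ± 1.35 in TN and 33.2% ± 2.98 in HS, and the MYH7 share 26.3% ± 2.83 and 26.5% ± 2.48. With the mean over all probes of an isoform in place of the brightest, the MYH3 share was 1.96% ± 1.46 in TN and 5.6% ± 3.04 in HS, and the MYH4 share went the other way, from 35.9% ± 1.41 in TN to 33.7% ± 3.07 in HS.

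**Figure D5:**
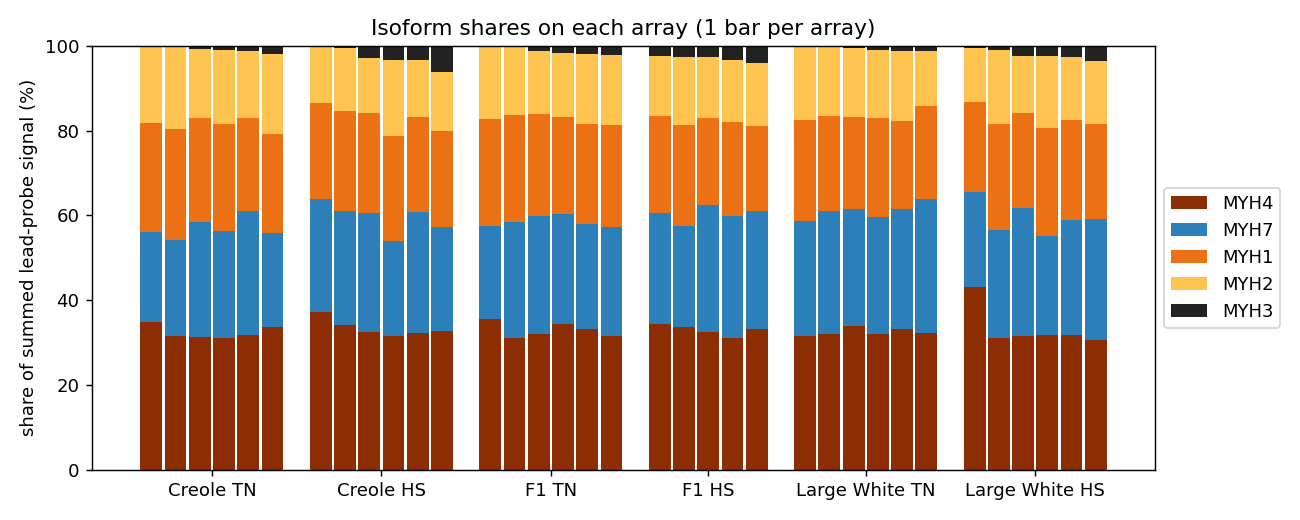
Share (%) of each isoform in the summed linear signal of the 5 brightest probes, 1 stacked bar per array, ordered by MYH3 share within each breed and temperature. The black MYH3 segment reaches 6.12% in Creole HS 3 and is at most 2.18% in TN, and the MYH4 segment of Large White HS 5 reaches 43.0%.

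Other genes of the contractile apparatus were counted beside the members. Of all probes, 16.0% were called, 7.73% as higher and 8.30% as lower in HS. At mean levels of 10 to 18 the share called lower lay between 9.54% and 16.8%, and at 18 to 20 it was 4.89%. Whether the counts below differ from these shares was not tested. Of 11 fast fibre genes measured, 3 were called lower in HS and none higher, with a median change of -0.126: the calcium pump ATP2A1 (-0.46, adjusted P = 0.00353), the myosin-binding protein MYBPC2 (-0.50, adjusted P = 0.0142) and the fast troponin I TNNI2 (-0.15, adjusted P = 0.0262). Of 12 slow fibre genes, 2 were called lower and 1 higher, with a median of -0.100: TPM3 (-0.29, adjusted P = 0.031) and MYOZ3 (-0.25, adjusted P = 0.00739) were lower and CASQ2 higher. MYOZ3 stood in the slow list but encodes a Z-disc protein known from fast fibres, so only 1 slow gene was lower if it is set aside. Of 13 genes of myosin folding and the thick filament, 3 were lower and none higher, with a median of -0.171. They were MYBPH (-0.52, adjusted P = 0.000756), a myosin-binding protein, MYOM2 (-0.48, adjusted P = 0.0137), a protein of the M-band, and titin, TTN (-0.37, adjusted P = 0.017).

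Of 19 regulators of isoform expression, 3 were called, all lower, with a median of -0.088. Of all probes, 16.0% were called and 8.30% were called lower, and whether 3 of 19 differs from these shares was not tested. TBX15 gave -0.40 (adjusted P = 0.00926) and SOX6, a repressor of slow genes in fast fibres, -0.40 (adjusted P = 0.0158), and NFIX, a factor of the switch from embryonic to fetal muscle, gave -0.35 (adjusted P = 0.0165). Of 9 other myosin heavy chains listed, 4 were measured and none was called: the slow-tonic MYH7B, the non-muscle MYH9 and MYH10, and the smooth muscle MYH11. Limma adjusted P values of MYH9, MYH10, MYH11 and MYH7B were 0.966, 0.231, 0.955 and 0.375.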

How the data were processed

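The authors labelled total RNA with Cy3 for 1-colour Agilent porcine arrays, and the deposited scanner files hold linear intensity values (Feature Extraction 10.10.1.1). The authors also deposited quantile-normalised log2 values of 40649 probes. Here the median pixel intensity of non-control spots was quantile-normalised and log2-transformed, 105 outlier spots were set to missing, and 41517 probes were kept that stood well above background in 75% or more of the arrays of some group. Comparisons used limma 3.58.1 in R 4.3.3 with breed and temperature, or 1 mean per group, two-sided, with Benjamini-Hochberg adjustment over all kept probes at 0.05. The random terms of the study's model (pen, slaughter day, father, mother) could not be fitted, since the labels lack them. The 75th percentile of log2 intensity ranged from 8.73 to 9.62, and all arrays had 1 scan day, on 5 slides (highest r between arrays 0.996). Symbols came from the accession in the RefSeq table (Sscrofa11.1), then from the array's gene name.

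Members and lists were chosen with earlier results of these data known, MYH3 among them. Named were all member probes, the 5 genes closest to MYH3 that stayed among the 50 closest after subtracting group means, and of each list the 3 called genes with the smallest adjusted P. Genes of lists were read by their brightest kept probe. MYOD1, VIM and the further calls of the developing fibre list were named after their values were seen. Adipocyte (5), smooth muscle (4) and cardiac (2 measured) markers had no call, and of 5 endothelial markers VWF was lower. The fit was tested on simulated data. Alternatives were other scalings, background correction, the deposited table, filters, slide, array weights, covariates, other probes and leaving out each array.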

Additional observations from a re-analysis of the deposited data

Results flagged for a closer look

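Of 60 checks for an array far from the rest of its group (the brightest probe and the share of 5 isoforms in 6 groups), 5 met the criterion, a gap to the nearest array that is too large a part of the group's range, where chance gives about 1 in 20, or 3. Large White HS 5 was low in MYH1 (18.12, next 18.45, gap 0.627 of the range) and had a MYH4 share of 43.0% (next 31.9%, gap 0.890 of the range). Large White TN 1 was low in MYH2 (17.68, next 17.99, gap 0.661) and in the MYH2 share (12.9%, next 15.9%, gap 0.692). F1 TN 2 was low in MYH7 (18.35, next 18.63, gap 0.631). No MYH3 level or share met the criterion.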

How the results depend on the processing

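The rise of MYH3 kept its direction under every alternative run and passed the threshold in all but the one with the index of transcript ends as a covariate (1.62, limma adjusted P = 0.152, against 0.00572 to 0.033 under the others tested across all probes), and it lay between 1.585 and 1.995 when single arrays were left out. The number of members called, 11, became 3 with array brightness and 3 with the leukocyte markers as a covariate, 7 with spike-in scaling and 0 with the index of transcript ends. It rose to 16 with 75th percentile scaling, 15 with median scaling and 16 with the processed signal, and it was 10 to 12 without single arrays. MYH2 was no longer called with spike-in scaling (-0.23), array brightness (-0.15), leukocyte markers (-0.13), the index (-0.13) or the median of its probes (-0.18), and lay between -0.23 and -0.18 without single arrays. MYH1 and MYH4 became called as lower with 75th percentile scaling (-0.30 and -0.23), median scaling (-0.23 and -0.15) and the processed signal (-0.31 and -0.24), MYH4 with the median of its probes (-0.38), and MYH1 by an unadjusted permutation test within breed (-0.085, P = 0.0373). MYH7 turned sign with the leukocyte markers (0.018) and ranged from -0.043 to 0.013 without single arrays, the last without Large White HS 5. Without single arrays, MYH1 lay between -0.098 and -0.064 and MYH4 between -0.021 and -0.005. No Creole minus Large White difference was called under any alternative. Signs turned for MYH2 with array weights (-0.010; -0.015 to 0.056 without single arrays), for MYH3 with array weights (0.116; -0.386 to 0.141) and for MYH4 with 75th percentile scaling (0.032), the median of its probes (0.018) and the processed signal (0.054). Within breeds, 75th percentile scaling turned MYH1 in Large White (-0.262), MYH4 in Creole (-0.265), and MYH7 in Creole (-0.220) and F1 pigs (-0.007), none of them called, and single arrays turned MYH1 in Large White (-0.031 to 0.075) and MYH4 in Creole (-0.011 to 0.028) and F1 pigs (-0.027 to 0.005). In Creole pigs MYH2 became called with 75th percentile scaling (-0.581) and without Creole HS 2 (-0.416). Causes were not tested. No paired analysis was possible because the replicate numbers only name arrays. Every member was well above background, so low signal did not limit them. At the bright end, all probes with means of 18 to 20 had a median absolute difference of 0.037, against 0.149 at 16 to 18. MYH3 rests on a single probe, and the number of arrays limits precision. Permutation used 100000 draws.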
